A study of Mus musculus with 4 samples.

Results

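Histone genes were followed in 4 primary mouse tumours. Members were the genes whose array annotation gave a histone symbol (H1, H2A, H2B, H3 or H4 genes under their older or current names) and that were read by a probe set, a group of array probes summarised into 1 value, annotated to exactly 1 gene. This rule found 32 genes among the 22180 named genes of the array. They comprised 23 replication-dependent genes, called cluster genes here because they lie in gene clusters on chromosomes 13 and 3, 3 variant genes, 5 germ-line genes and 1 pseudogene. Symbols are those of RefSeq, which replaced the older Hist1h and Hist2h names.

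Each tumour was labelled as Alk mutant, TH-MYCN and Stat6-/-, where Alk is a receptor tyrosine kinase and Stat6 a transcription factor of cytokine signalling, and the strain label was C57BL\6 x 129Sv/J. TH-MYCN drives MYCN from the tyrosine hydroxylase promoter in catecholamine-making cells, and mice that carry it develop neuroblastoma, which arises from sympathetic nerve precursors. All 4 tumours carried all 3 alleles, so the data hold 1 group without a control, and tumours could be described beside each other but not tested. The labels do not say whether the tumours came from separate animals. The 1-colour Affymetrix arrays gave log2 signals, on which 1 unit is a 2-fold difference.

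Histones are the proteins around which DNA is wound: H2A, H2B, H3 and H4 form the core of the nucleosome, and H1 binds the linker DNA at its edge. The cluster genes are transcribed mainly in S phase, when newly copied DNA has to be packed, and their mRNAs end in a stem-loop in place of a poly(A) tail. Variant genes lie outside the clusters, are transcribed through the cell cycle and give polyadenylated mRNAs. MYCN-driven neuroblastomas are known as fast-cycling tumours. The labels do not say how the labelling reaction was primed. A poly(A)-primed reaction copies poly(A)-tailed mRNAs preferentially, so the priming bears on how fully cluster mRNAs could be read.

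Promoter sequences show what the cluster genes share apart from their name. In the RefSeq promoter table of GRCm38.p6, 29 of the 32 members had an entry, running from 250 bases before to 50 bases after the gene's start. Below are the 120 bases just before the start of H1, H2A, H2B and H4 genes with ranges of at least 1 log2 unit over the tumours (H1f1, H2ac21, H2bc12 and H4c17), of H2B and H4 genes with ranges under 0.5 log2 units (H2bc3, H2bc18 and H4c12), and of a variant gene (H2az2). Capitals mark the TATA box letters TATAAA, the CCAAT box (written ATTGG on the opposite strand), the octamer ATTTGCAT known from H2B promoters, and GGTCC, the core of a histone H4 promoter element, each searched on both strands.
H1f1, chr13:23763548-23763667, plus strand: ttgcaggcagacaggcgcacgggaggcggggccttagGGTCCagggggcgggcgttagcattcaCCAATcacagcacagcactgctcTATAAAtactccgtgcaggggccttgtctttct
H2ac21, chr3:96219765-96219884, plus strand: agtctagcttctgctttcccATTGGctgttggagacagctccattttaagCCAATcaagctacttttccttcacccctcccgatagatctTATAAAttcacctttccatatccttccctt
H2bc12, chr13:22035701-22035820, plus strand: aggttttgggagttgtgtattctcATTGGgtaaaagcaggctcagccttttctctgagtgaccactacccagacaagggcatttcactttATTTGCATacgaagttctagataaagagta
H2bc3, chr13:23746614-23746733, plus strand: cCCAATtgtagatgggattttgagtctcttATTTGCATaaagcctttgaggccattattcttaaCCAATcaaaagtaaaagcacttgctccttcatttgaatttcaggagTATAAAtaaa
H2bc18, chr3:96269580-96269699, plus strand: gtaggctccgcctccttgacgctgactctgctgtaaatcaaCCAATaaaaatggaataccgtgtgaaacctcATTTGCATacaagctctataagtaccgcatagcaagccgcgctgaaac
H4c17, chr13:21811626-21811745, plus strand: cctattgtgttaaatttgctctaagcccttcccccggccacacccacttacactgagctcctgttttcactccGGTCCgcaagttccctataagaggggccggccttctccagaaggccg
H4c12, chr13:21750554-21750673, minus strand: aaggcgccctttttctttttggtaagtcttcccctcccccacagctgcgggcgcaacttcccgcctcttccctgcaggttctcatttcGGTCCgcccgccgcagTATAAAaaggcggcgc
H2az2, chr11:6444444-6444563, minus strand: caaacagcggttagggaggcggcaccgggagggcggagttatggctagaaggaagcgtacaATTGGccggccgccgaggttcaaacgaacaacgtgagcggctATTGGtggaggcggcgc

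TATAAA stood in the promoters of 14 of 21 cluster genes (66.7%), of 0 of 3 variant genes and of 13.6% of all 32851 promoters in the table. Matches counted anywhere in the window. In H1f1, H1f3, H1f5, H2ac20 and H2ac21 TATAAA began at -26 to -42 from the start on the gene's strand. In H2bc3 and H4c12 it began at -10 and -16, and in H4c17 and H4c9 at -128 and -137. In H2ac12, H2ac15 and H4c1 it lay after the start, and in H2bc12 and H2bc22 only on the opposite strand. CCAAT stood in 16 of 21 cluster promoters (76.2%), in 2 of 3 variant promoters and in 37.4% of all promoters. It was found in every H1, H2A and H2B cluster promoter with an entry (4, 5 and 6 genes) and in 1 of 6 H4 promoters. The octamer stood in 6 of 21 cluster promoters (28.6%), against 0 of 3 variant promoters and 1.74% of all. These were the H2B genes H2bc3, H2bc12, H2bc14 and H2bc18 and the H2A genes H2ac12 and H2ac20, and the germ-line genes H2ac1 and H2bc1 held it too. Starts of H2bc12 and H2ac12 lie 178 bases apart on opposite strands and those of H2bc1 and H2ac1 281, so each pair's windows overlap, by 277 and 220 bases. The octamer of each pair is the same stretch of DNA and counts for both of its genes. TATAAA and CCAAT letters within the overlaps are shared too. The TATAAA and CCAAT counts of cluster genes thus hold both H2bc12 and H2ac12 for the same DNA. GGTCC, a short motif, was found in 8 of 21 cluster promoters (38.1%), of which 5 were among the 6 H4 promoters, against 3 of 3 variant promoters and 45.5% of all. A match is a run of letters and not a shown binding site. All 3 H2B promoters above hold the octamer, which stood in 4 of the 6 H2B cluster promoters and not in those of H2bc9 and H2bc22.

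Detection was called against 1394 genes for olfactory and vomeronasal receptors, proteins of the nose: a gene was detected if its 4-tumour mean lay above 6.17, the level under which 95% of the receptor genes' means fell. Among all named genes, 40.5% were detected. Of the 23 cluster genes 12 were detected (52.2%), made up of 3 of 4 H1, 4 of 5 H2A, 3 of 7 H2B and 2 of 7 H4 genes. Of the 3 variant genes 2 were detected. A member under the floor was undetermined and not shown to be absent, since probe sets for near-identical histone genes differed widely in brightness. For the same reason signals of different members were not ranked against each other.

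Several cluster genes differed widely between tumours. A range of at least 1 log2 unit over the 4 tumours was found for 5 of the 12 detected cluster genes (41.7%), namely H1f1, H4c17, H2ac20, H2bc12 and H2ac21, for 0 of 2 variants and for 4.26% of all detected genes. H1f1 and H2ac20 passed the floor only through the tumours in which they were high; over all 23 cluster genes, those under the floor included, 6 had such a range, the sixth being H2bc9, as did 2.74% of all named genes. A range of at least 0.5 was found for 9 of the 12, and for 35.1% of all detected genes. The median range was 0.78 log2 units over the 12 cluster genes (0.18 to 2.01), 0.58 over the 2 variants and 0.41 over all detected genes. Tumour 2 had the highest signal of 10 of the 12 cluster genes, whereas it was the highest for 26.9% of all detected genes. Tumour 1, the highest for 46.6% of all detected genes, was so for 1 cluster gene, and tumour 4 for 1 (15.5% of all). Tumour 3 was the highest for 0 cluster genes (11.0% of all). The lowest signal fell in tumour 3 for 6 cluster genes and in tumour 4 for 6, against 36.1% and 38.6% of all detected genes. Tumours 1 and 2 were the lowest for 0 cluster genes, against 7.52% and 17.8% of all detected genes. After a further quantile normalization the lowest signal fell in tumour 3 for 8 of the 11 cluster genes then detected and in tumour 4 for 2. The shares over all genes were not taken after that step, so these counts have no background beside them. The count of variable genes rested partly on the floor and on single tumours: it was 2 under a stricter floor above 99% of the receptor genes (3.67% of all genes then detected), 1 without tumour 2 (3.07%), 3 without tumour 1 (2.98%) or tumour 3 (2.82%), and 4 without tumour 4 (2.49%).

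**Figure D1:**
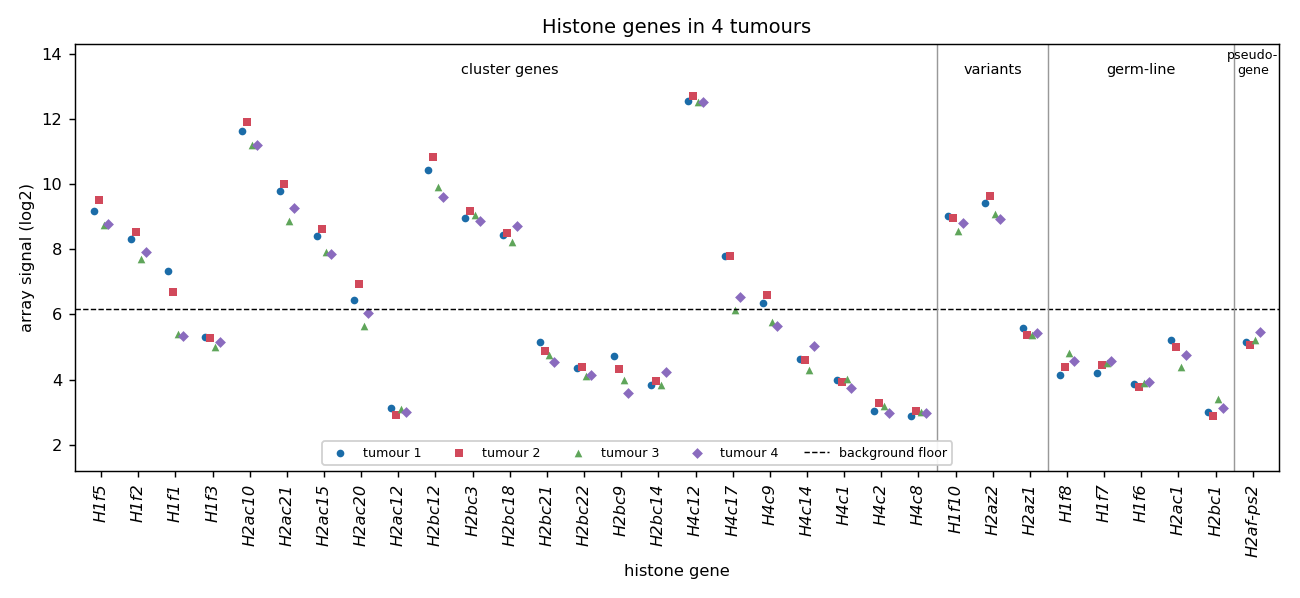
Log2 array signal of all 32 histone genes in each tumour, grouped as cluster, variant, germ-line and pseudogene, with the background floor of 6.17 dashed. For most detected cluster genes the squares of tumour 2 lie on top and the symbols of tumours 3 and 4 lowest, while H4c12 and H2bc3 are nearly level.

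Linker histone genes included the member with the widest range. H1f1, which encodes H1.1, gave signals of 7.35, 6.69, 5.40 and 5.34 in tumours 1 to 4, with a mean of 6.19 ± 0.99 (SD, n = 4) and a range of 2.01 log2 units. It was above the floor in tumours 1 and 2 and below it in tumours 3 and 4, so it passed the filter through the tumours in which it was high, just inside the floor. Its range lay at the 99.6th percentile of detected genes.

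H1f5 read 9.16, 9.50, 8.74 and 8.79 in tumours 1 to 4, a range of 0.76 log2 units. H1f2, which encodes H1.2, read 8.31, 8.52, 7.71 and 7.93, a range of 0.81. In both genes tumour 2 stood highest, tumour 1 next, and tumours 3 and 4 below them. In H1f5 tumours 3 and 4 lay close together. H1f3 had a mean of 5.18 ± 0.14 (SD, n = 4) and was under the floor in every tumour.

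All 4 detected H2A cluster genes were highest in tumour 2, and tumour 1 was the next in each of them. H2ac10 read 11.63, 11.90, 11.20 and 11.20 in tumours 1 to 4, a range of 0.70 log2 units. H2ac15 read 8.41, 8.63, 7.92 and 7.87, with tumours 3 and 4 again close together below the other tumours. H2ac21, whose promoter is shown above, read 9.78, 10.01, 8.88 and 9.26, so that tumour 3 was lowest and the range was 1.13 log2 units. It was the only member with more than 1 probe set, and its other probe set had a mean of 4.35, under the floor.

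H2ac20 gave 6.45, 6.93, 5.65 and 6.04 in tumours 1 to 4, a mean of 6.27 ± 0.55 (SD, n = 4) and a range of 1.28. Like H1f1 it lay just inside the floor and was above it only in tumours 1 and 2. H2ac12, the divergent neighbour of H2bc12, was under the floor with a mean of 3.04 ± 0.09 (SD, n = 4).

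Of the 3 detected H2B genes, 1 had a range of at least 1 log2 unit and 2 had ranges under 0.5. H2bc12 read 10.45, 10.83, 9.93 and 9.59 in tumours 1 to 4, with a mean of 10.20 ± 0.55 (SD, n = 4). Its range of 1.24 log2 units ran from tumour 2 at the top to tumour 4 at the bottom. H2bc3 read 8.96, 9.18, 9.06 and 8.87, a range of 0.31, which is under the median of all detected genes. H2bc18 was the 1 detected cluster gene that was highest in tumour 4: its signals were 8.43, 8.51, 8.22 and 8.71, a range of 0.49, above the median of all detected genes. The remaining 4 H2B cluster genes, H2bc9, H2bc14, H2bc21 and H2bc22, had means of 3.96 to 4.83 and were under the floor.

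The detected H4 genes lay at opposite ends of the spread. H4c17 read 7.79, 7.80, 6.15 and 6.53 in tumours 1 to 4, with tumours 1 and 2 level and more than 1 log2 unit above tumours 3 and 4. Its mean was 7.07 ± 0.86 (SD, n = 4) and its range of 1.66 lay at the 99.3rd percentile of detected genes. H4c12 read 12.55, 12.69, 12.52 and 12.51, a range of 0.18 log2 units that lay at the 9.10th percentile. Signals this near the top of the table, whose highest value was 13.6, can be compressed, and whether that happened here was not tested. H4c9 was just outside the floor at 6.35, 6.59, 5.78 and 5.63, and the other 4 H4 genes, H4c1, H4c2, H4c8 and H4c14, had means of 2.98 to 4.64.

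None of the 5 germ-line genes was detected. They were H1f6, H1f7, H2ac1 and H2bc1, which encode histones of the testis, and H1f8, the oocyte linker histone, with means between 3.10 and 4.84. The pseudogene H2af-ps2 had a mean of 5.23 ± 0.17 (SD, n = 4).

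Detected genes as a whole deviated differently from tumour to tumour. Each detected member's deviation from its own mean was therefore also read relative to a reference. This was the median deviation of detected genes of like level in the same tumour. On this scale H1f1 stood 1.10 above like genes in tumour 1, 0.53 above in tumour 2, and at -0.77 and -0.86 in tumours 3 and 4. H4c17 stood at 0.58, 0.69, -0.83 and -0.44, and H2ac20 at 0.13, 0.69, -0.59 and -0.23. H2bc12 was at 0.16, 0.55, -0.17 and -0.52. Above like genes stood 8, 11, 2 and 2 of the 12 cluster genes in tumours 1 to 4, where 49.9% of all detected genes do by construction. H2bc18 was the exception in tumour 2, at -0.03, and H2bc3, H2bc18 and H4c12 were those below like genes in tumour 1 by more than 0.1.

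**Figure D2:**
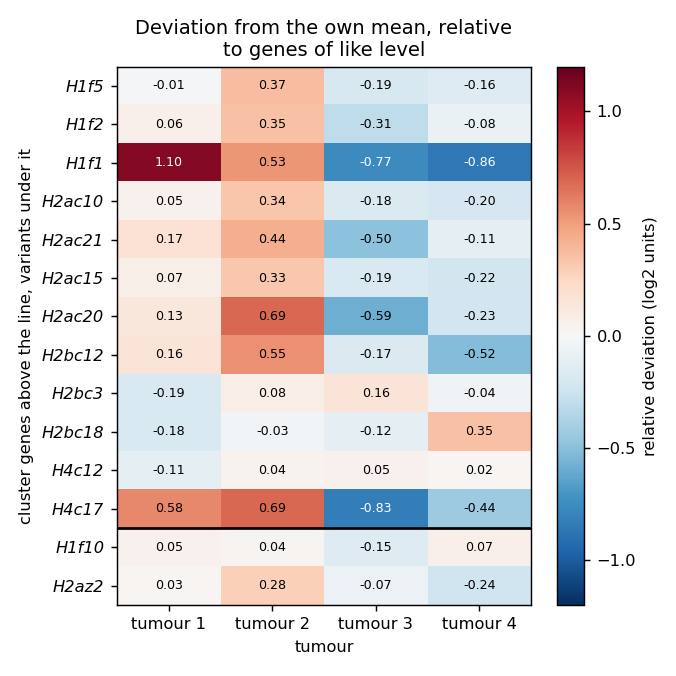
Deviation of each detected member from its own 4-tumour mean, relative to detected genes of like level, in log2 units, with tumours as columns and genes as rows, cluster genes above the black line and the 2 variants under it. Red cells in tumours 1 and 2 and blue cells in tumours 3 and 4 mark most cluster genes, with H1f1, H4c17, H2ac20 and H2bc12 the strongest in colour.

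Of the variant genes, H1f10, which encodes the linker variant H1.10, read 9.02, 8.96, 8.57 and 8.80 in tumours 1 to 4, a range of 0.45 log2 units. H2az2, 1 of the genes for H2A.Z, which marks promoters and enhancers, read 9.42, 9.65, 9.09 and 8.93, a range of 0.71, and was highest in tumour 2 as most cluster genes were. H2az1, the other H2A.Z gene, was under the floor at 5.59, 5.36, 5.37 and 5.43, with a range of 0.23.

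Over the 12 cluster genes the median relative deviation was 0.07 ± 0.36, 0.36 ± 0.24, -0.19 ± 0.31 and -0.18 ± 0.30 log2 units in tumours 1 to 4 (SD over genes). Over the 2 variants it was 0.04 ± 0.02, 0.16 ± 0.18, -0.11 ± 0.05 and -0.08 ± 0.21. In tumour 4 H1f10 stood at 0.07 and H2az2 at -0.24. Cluster genes minus variants came to 0.03, 0.20, -0.08 and -0.09 log2 units. The comparison rests on 2 variants, and no test was made. The cluster genes' value in tumour 1 had no settled sign: it ran from -0.0098 without tumour 3 to 0.17 without tumour 2. With 1 tumour left out it ran from 0.27 to 0.36 in tumour 2, from -0.33 (without tumour 4) to -0.079 (without tumour 2) in tumour 3, and from -0.27 (without tumour 3) to -0.023 (without tumour 2) in tumour 4. Cluster genes minus variants turned sign in tumour 1, at -0.013 without tumour 3, -0.012 without tumour 4 and -0.026 with shared probe sets, and in tumour 4, at 0.0087 without tumour 2. In tumour 2 the cluster genes' value was 0.18 over all 23 measured cluster genes, and 0.19 when the 8 detected probe sets shared by several histone genes were added as members, where cluster minus variants was 0.03.

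In tumour 2 the cluster genes of both chromosomes had positive medians, and the H2B genes had a lower median than the other types. The 9 detected genes of chromosome 13 (of 18 measured) had medians of 0.06, 0.35, -0.19 and -0.20 in tumours 1 to 4, and the 3 of chromosome 3 (of 5 measured) 0.13, 0.44, -0.50 and -0.11. By type, medians in tumours 1 to 4 were 0.06, 0.37, -0.31 and -0.16 for H1, and 0.10, 0.39, -0.34 and -0.21 for H2A. For H4, on 2 genes, they were 0.24, 0.36, -0.39 and -0.21. For H2B, on 3 genes, they were -0.18, 0.08, -0.12 and -0.04.

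Some histone variants and an H4 gene have symbols outside the rule and were added after their values had been seen. H2ax, whose protein is phosphorylated at DNA breaks, read 10.51, 10.69, 9.998 and 10.04 in tumours 1 to 4. Its mRNA can end in a stem-loop as cluster mRNAs do. Its signals in tumours 1 and 2 lay above those in tumours 3 and 4. Cenpa, the centromeric H3 variant, read 9.11, 9.32, 8.95 and 8.93. Macroh2a1, a variant enriched on the inactive X chromosome, read 10.08, 9.99, 9.85 and 9.75, and Macroh2a2 read 6.75, 6.55, 6.40 and 6.55. H2aj was under the floor with a mean of 5.82. With these, 6 of 8 variants were detected, 0 had a range of at least 1 log2 unit, and their median relative deviations were 0.06, 0.10, -0.09 and -0.07. H4f16, an H4 gene on chromosome 6 and so outside both clusters, read 8.87, 9.17, 8.28 and 8.05, a range of 1.12 log2 units, while its other probe set had a mean of 5.24.

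Histone H3 could be read only through probe sets that several genes share, since 0 H3 genes had a probe set of their own. In all, 45 probe sets were annotated to several genes that included a histone gene, in 14 sets of genes, and 42 histone genes were read by these alone. Of the cluster H3 genes, a set of 8 led by H3c13 had a brightest probe set at 7.86, 7.91, 7.51 and 7.77 in tumours 1 to 4, a range of 0.41 log2 units. A set of 4 led by H3c1 read 6.64, 6.56, 6.22 and 6.501. H3.3, the replication-independent H3 made by H3f3a and H3f3b, was read by a set of 5 genes at 11.35, 11.43, 11.14 and 11.37 on its brightest probe set, a range of 0.29.

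Shared H2A and H2B probe sets reached log2 signals above 12. A set of 12 H2A genes that includes H2ac10 read 12.54, 12.62, 12.21 and 12.29 in tumours 1 to 4, and a set of 12 H2B genes led by H2bc11 read 12.61, 12.73, 12.36 and 12.40. A probe set for 10 H2A genes led by H2ac11 read 8.71, 8.87, 7.39 and 7.61, a range of 1.48 log2 units, while a brighter probe set for the same 10 genes read 11.78, 12.08, 11.60 and 11.48. Of the 11 distinct shared probe sets for cluster genes above the floor, 8 were highest in tumour 2 and 8 lowest in tumour 3. Those tumours were so for 26.9% and 36.1% of all detected genes. The sets of genes overlap, so the 11 are not separate members. The probe sets' median range was 0.43 log2 units (0.17 to 1.48), near that of all detected genes. The narrowest range was that of a probe set with a mean of 12.71, the widest that of 1 with a mean of 8.14. A probe set with a mean of 7.76 had a range of 0.41. Signals near the top of the table can be compressed, and whether this narrowed the ranges was not tested. Of the 11, 1 reached 1 log2 unit, as did 4.26% of all detected genes. The 6 distinct H3.3 probe sets above the floor had a median range of 0.29 (0.20 to 0.73), with 3 highest in tumour 2 and 5 lowest in tumour 3.

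**Figure D3:**
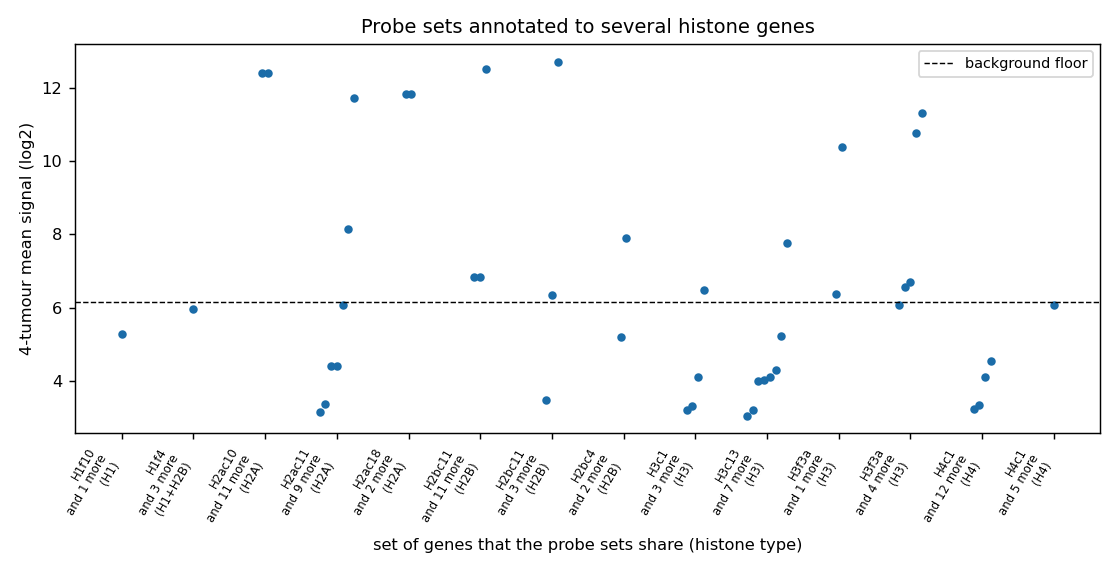
Mean log2 signal over the 4 tumours of each probe set annotated to several genes including a histone gene, 1 column per set of genes, with the background floor of 6.17 dashed. Probe sets with the same annotation lie far apart in level, from 3.17 to 11.73 for the set led by H2ac11 and from 3.06 to 7.76 for that led by H3c13.

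Gene lists that accompany histone production were read on the same relative scale. S phase genes (20 of 20 measured were detected) had medians of 0.07 ± 0.10, 0.24 ± 0.14, -0.11 ± 0.12 and -0.15 ± 0.15 in tumours 1 to 4 (SD over genes). In tumours 2, 3 and 4 these had the signs of the cluster genes, and in tumour 1, where the cluster genes' sign was not settled, the S phase value ran from 0.016 without tumour 4 to 0.15 without tumour 2. Cdt1, a factor that licenses replication origins, read 8.33, 8.46, 8.17 and 7.53, and Mcm4, a subunit of the replicative helicase, 9.08, 9.21, 8.62 and 8.39. G2 and M phase genes (19 of 19) had medians of 0.03 ± 0.09, 0.17 ± 0.15, -0.11 ± 0.11 and -0.13 ± 0.14. Tumour 2 was the highest for 26.9% of all detected genes, for 15 of these 19 and for 11 of the 20 S phase genes. Tumour 1, the highest for 46.6% of all detected genes, was so for 4 of the 19 and for 9 of the 20. The G2 and M phase value in tumour 1 turned to -0.017 without tumour 3 and -0.022 without tumour 4. The mitotic kinase genes Plk1 and Aurka read 10.02, 10.41, 9.51 and 9.41, and 8.47, 8.72, 7.76 and 8.06. Their ranges, just under 1 log2 unit, were the widest of that list, and 0 genes of either list reached 1 log2 unit, as 4.26% of all detected genes did.

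Chaperones that place newly made histones behind the replication fork (12 of 12 detected) had medians of 0.08 ± 0.07, 0.15 ± 0.11, -0.10 ± 0.13 and -0.17 ± 0.13 in tumours 1 to 4. Supt16, a subunit of the FACT complex, read 8.87, 8.98, 8.37 and 8.25, and Asf1a, an H3 and H4 chaperone, 8.46, 8.41, 7.78 and 7.73. In both genes tumours 1 and 2 lay above tumours 3 and 4. Chaperones and remodellers of variants (12 of 12 detected) stayed near 0, at -0.02, 0.00, 0.03 and 0.05. In that list the H3.3 chaperone gene Daxx read 7.37, 7.38, 7.06 and 6.75, and Vps72, of the complexes that load H2A.Z, 9.23, 9.46, 8.87 and 9.42.

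Genes for the transcription and 3' end processing of cluster mRNAs were near 0 as a list (13 of 14 detected), at -0.00, 0.07, 0.02 and -0.04. Slbp, whose protein binds the stem-loop, read 8.26, 8.30, 8.10 and 7.86. Npat, the coactivator of cluster genes in S phase, read 7.98, 7.68, 7.57 and 7.26, so that it was highest in tumour 1. Casp8ap2, whose protein FLASH acts with Npat at the clusters and in 3' end processing, read 7.88, 8.03, 7.54 and 7.62. Cpsf3, the endonuclease that cuts the 3' end, read 8.64, 8.73, 7.94 and 8.03, the widest range of the list.

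**Figure D4:**
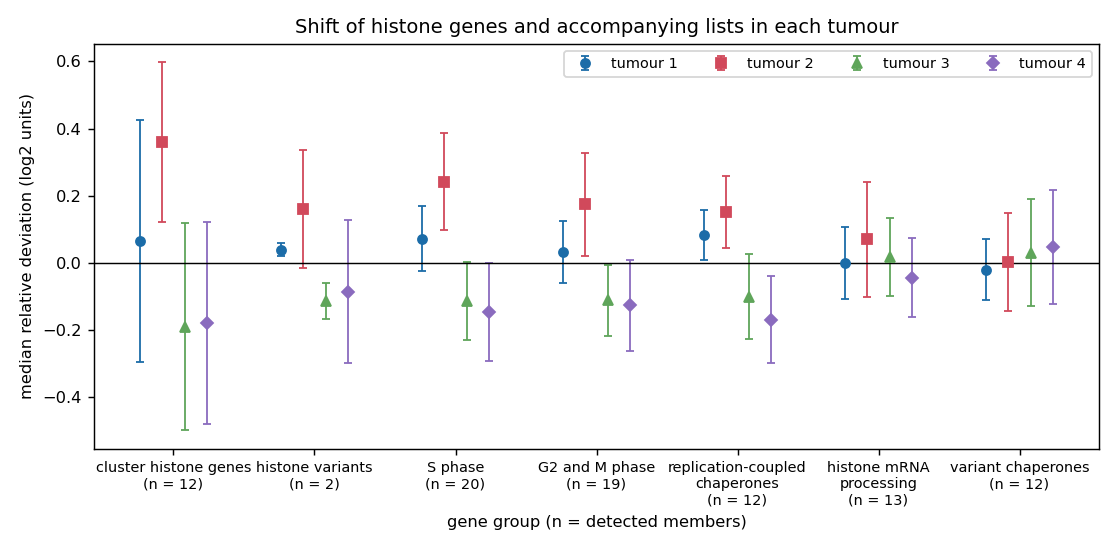
Median relative deviation (log2 units) of the detected members of each gene group in tumours 1 to 4, with bars of 1 SD over the group's genes. In cluster histone genes, the 2 variants, S phase, G2 and M phase and replication-coupled chaperones, tumours 1 and 2 have medians above 0. Tumours 3 and 4 have medians below 0 there, and tumour 2 is on top. Histone mRNA processing and variant chaperones lie near 0. Of the 2 variants, H2az2 had this order, whereas H1f10 stood at 0.05, 0.04, -0.15 and 0.07 in tumours 1 to 4.

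The tumours differed in more than histone genes. Array medians rose from 5.15 in tumour 1 to 5.29 in tumour 4. The median deviation of detected genes ran the other way, from 0.12 in tumour 1 to -0.09 in tumour 3 and -0.08 in tumour 4. In bulk tumour RNA, fewer cells of a type and less RNA per cell cannot be told apart. Sympathoadrenal markers (9 of 9 detected) had mean signals of 9.74, 9.56, 9.77 and 9.89 in tumours 1 to 4, lowest where cluster genes were highest, and 0 of 12 skeletal muscle markers were detected although the labels give a neck muscle as tissue. The 8 detected of 12 macrophage markers averaged 8.02, 8.03, 7.30 and 7.97, with median relative deviations of 0.05, 0.14, -0.49 and 0.20. The 5 detected of 7 fibroblast markers averaged 8.13, 7.003, 7.41 and 6.78, with medians of 0.53, -0.30, 0.18 and -0.39. Markers of endothelial cells (2 of 6), Schwann cells (1 of 4) and lymphocytes (0 of 6) were mostly under the floor. The 1 detected Schwann marker, Fabp7, read 9.54, 8.49, 6.49 and 8.32, a range of 3.05. Its relative deviations were 1.19, 0.19, -1.62 and 0.23 in tumours 1 to 4, against cluster gene medians of 0.07, 0.36, -0.19 and -0.18. Of the Schwann markers under the floor, Erbb3 was also highest in tumour 1 and lowest in tumour 3, while Sox10 and S100b were highest in tumour 3. Xist read 10.13 in tumour 4 and 3.89 to 3.95 in the others, and the Y-linked Eif2s3y 3.90 in tumour 4 and 7.47 to 7.89 in the others. The part of cell make-up and sex in the histone values was not tested.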

How the data were processed

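Total RNA of 4 tumours, extracted with Trizol and labelled with biotin, was measured on 1 Affymetrix array each, per the labels' protocols. The deposited values were made with RMA and Partek, per the submitters' processing notes, without versions or settings. RMA corrects background, quantile-normalizes arrays and summarises probes on a log2 scale. The log base is not stated, and the deposited values, from 2.47 to 13.6, were taken as log2. Their depth is unknown, and 4 arrays limit the precision.

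Of 41345 probe sets, 25335 were annotated, 23521 to 1 gene, of which 23328 were matched by Entrez identifier to RefSeq (GRCm38.p6). The probe set with the highest mean stood for a gene. Named were all detected members, germ-line members, the 2 members nearest to the floor on each side, Slbp, Npat, Casp8ap2 and the 2 genes of widest range in each list. Members, lists and alternatives were chosen with earlier results of these data known. With 1 group no test was made and no p-value is given. Relative deviations used 20 bins of level. Python 3.11.15, numpy 2.4.6, pandas 2.3.3 and matplotlib 3.10.9 were used, and the relative deviation was tested on simulated data. Alternatives covered the floor, the range threshold, probe set choice, normalization, shared probe sets, the scale of deviations and leaving out each tumour.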

Additional observations from a re-analysis of the deposited data

How the results depend on the processing

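Of 612 values recomputed under the alternatives, 565 moved by less than their spread or by less than 1.5 times. For a shift the spread was its SD over the tumours, which is wide. The cluster genes' 0.36 in tumour 2 thus counted as unmoved at 0.19 with shared probe sets. Some alternatives, such as choosing members by RefSeq symbol, changed no value, so the tally is not a measure of robustness. Tumour 2 was highest for 10 of 12 cluster genes, and for 26.9% of all detected genes. Under the alternatives that kept this tumour the count ran from 8 to 15, over differing totals. It was 8 of 9 with the 99th-percentile floor, 14 of 23 without a floor and 15 of 20 with shared probe sets added. Shares of all genes highest or lowest in a tumour were taken in the main setting only, and not under the alternatives. Detected cluster genes numbered 12, against 23 without a floor and 20 with shared probe sets added, and detected variants 2, against 6 with the variants outside the rule. Variable cluster genes numbered 5, against 2 with the 99th-percentile floor, 9 with a range of 0.5 (35.1% of all detected genes) and 1 to 4 without 1 tumour, and variable variants 0, against 1 with a range of 0.5. Highest in tumour 1 was 1 cluster gene, against 0 with the 99th-percentile floor, 4 with the receptor median of 4.01 as floor, 5 without a floor, 0 after a further quantile normalization, 2 with shared probe sets and 1 to 8 without 1 tumour. Highest in tumour 3 was 1 without a floor, after quantile normalization or with shared probe sets, and 0 to 1 without 1 tumour. Highest in tumour 4 were 2 with the receptor-median floor or shared probe sets, and 3 without a floor. Lowest in tumour 1 was 1 without a floor or after quantile normalization, and 0 to 1 without 1 tumour, and lowest in tumour 2 was 1 without a floor. Lowest in tumour 3 were 10 of 23 without a floor, 12 of 20 with shared probe sets and 5 to 12 without 1 tumour, when 10 to 13 were detected. Lowest in tumour 4 were 11 of 23 without a floor, 2 of 11 after quantile normalization and 5 to 12 without 1 tumour. Cluster minus variants in tumour 2 was 0.031 with shared probe sets and 0.15 to 0.19 without 1 tumour, and without 1 tumour it ran from -0.013 to 0.072 in tumour 1, from -0.19 to -0.0097 in tumour 3 and from -0.15 to 0.0087 in tumour 4. With deviations as measured, not relative to like genes, variants stood at 0.17 in tumour 1. The processing list then stood at 0.13, -0.052 and -0.15 in tumours 1, 3 and 4. Variant chaperones stood at 0.12, 0.077, -0.077 and -0.060 in tumours 1 to 4. These values have the signs of the median deviation of all detected genes, which was 0.12, 0.04, -0.09 and -0.08. Variant chaperones were 0.033 in tumour 2 relative to all detected genes, 0.010 in tumour 4 as a mean over members, and without 1 tumour -0.059 to -0.020, 0.0025 to 0.033 and -0.019 to 0.058 in tumours 1, 2 and 4. The cause of the other movements was not tested. No paired analysis was possible because there is 1 group. Signal near background limits what can be said of the 11 cluster genes under the floor.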

Other observations

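Probe sets with identical annotation did not read alike. The 8 probe sets for the set of 8 H3 genes led by H3c13 had means from 3.06 to 7.76, and the 3 for 4 H2B genes led by H2bc11 from 3.49 to 12.71. For the 13 H4 genes led by H4c1, which include H4c12, all 4 probe sets were under the floor, at 3.23 to 4.54. The probe set annotated to H4c12 alone stood at 12.57. The 2 probe sets annotated to H3f3a and Gm12657 were ordered differently over the tumours: the brighter read 10.43, 10.49, 10.20 and 10.40 in tumours 1 to 4, the dimmer 6.00, 6.23, 6.73 and 6.58. Of the 14 detected members and 4 detected variants outside the rule, 0 of 18 had a tumour standing apart from the other 3 by Dixon's criterion, which 3.83% of all detected genes met.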
